A study of Homo sapiens with 6 samples.

Results

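The class genes are 10 transcripts used to sort uveal melanomas, tumours of the pigmented middle layer of the eye, into prognostic classes. They were taken by symbol from the 58735 rows of the deposited gene table. EIF1B, FXR1, ID2, LMCD1, LTA4H, MTUS1, ROBO1 and SATB1 are the 8 that are high in class 1 tumours, which seldom metastasize. RAB31 and ECM1 are the 2 members that are high in class 2 tumours, which often do. All 10 were found once, and all 10 were among the 14844 genes that passed the filter on low counts.

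RNA-seq was done on 6 libraries of Mum-2b, a human line labelled as uveal melanoma. The 3 control libraries carry the genotype label WT, and in the other 3 NELFCD was knocked down by a short hairpin RNA (shRNA). No other treatment or allele is labelled, and the knockdown titles carry 1 hairpin number, so what follows from loss of the target cannot be told apart from other action of that hairpin. NELFCD encodes a subunit of the negative elongation factor, a complex that keeps RNA polymerase II paused close to the start of genes. The labels do not say whether replicates were separate cultures, so p-values measure only the spread between these libraries.

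Class 1 tumours keep a transcript pattern close to that of melanocytes, while class 2 tumours lose much of it and often carry a lost copy of chromosome 3 and an inactivated BAP1 gene. The assay reads a few transcripts in place of the whole pattern and was made for biopsies of tumours, not for cultured cells. Its genes have unrelated roles, from translation and chromatin to axon guidance and membrane traffic. In bulk RNA, fewer cells of a type and less RNA per cell cannot be told apart.

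Depth was 14306733 to 16656630 counts per library, and 23414 to 25846 genes had at least 1 count. Replicate 1 of both groups stood apart: against replicates 2 and 3 its counts gave a chi-square of 86.1 to 101 for each degree of freedom, where replicates 2 and 3 against each other gave 2.02 to 2.16. Which library used which of the 2 extraction kits named in the protocol is not given. Results are therefore set out without the replicate number in the model, with it (the blocked fit), and in replicates 2 and 3 alone. The difference between replicates 2 and 3 was not shared between groups (r = -0.00464 across genes). Pairs 2 and 3 below are thus pairs by number only. Of the 8 melanocyte markers, 5 averaged under 1 CPM (counts scaled to a common library size) over the 6 libraries. Tyrosinase (TYR) had 1 count in all. TYRP1 averaged 3.79 and 5.54 CPM, MITF 3.08 and 3.67 CPM and MLANA 0.868 and 1.54 CPM in control and knockdown libraries. The summed level of the 8 was 7.50 to 10.8 CPM in control and 7.61 to 18.3 CPM in knockdown libraries. The label of the line was thus not clearly borne out by these markers, of which 3 passed the filter at low levels. The keratins KRT8 and KRT18 averaged 729.7 and 364 CPM in control libraries, but 4 of the 6 epithelial markers averaged under 1 CPM over all libraries. Of the 6 endothelial markers, TIE1 averaged 282 CPM and CDH5 140 CPM in control libraries. KDR and PECAM1 averaged 2.02 and 1.97 CPM there, and VWF and TEK 0.398 and 0.0653 CPM. All 6 leukocyte markers and all 8 fibroblast markers averaged under 1 CPM. COL1A1, the 1 fibroblast marker tested, averaged 1.03 CPM in control and 0.929 CPM in knockdown libraries.

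NELFCD itself stood at 65.5, 88.3 and 83.5 CPM in control libraries 1 to 3 and at 20.7, 37.4 and 40.3 CPM in knockdown libraries 1 to 3. The groups did not overlap, and the knockdown mean was 41.5% of the control mean. In edgeR's quasi-likelihood test NELFCD fell with the replicate number in the fit, with a log2 fold change of -1.30 ± 0.109 (SE, adjusted p = 0.00046). Unblocked, the value was -1.27 (edgeR adjusted p = 0.532).

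The sequences upstream of ROBO1 and RAB31 are shown because these are the members of class 1 and class 2 that passed every fit with the replicate number handled. They come from RefSeq (GRCh38.p14) and are written 5′ to 3′ on the gene's strand, ending just before an annotated start or, for RAB31, before the first exon base. ROBO1 has 2 annotated starts, at the distal window chr3:79767999-79768248 and the proximal window chr3:79019460-79019709, both on the minus strand. RAB31 has 1, and the printed stretch is chr18:9708051-9708164 on the plus strand. Capitals mark GGGCGG, the core of the GC box bound by SP1-like factors.
ROBO1 distal start: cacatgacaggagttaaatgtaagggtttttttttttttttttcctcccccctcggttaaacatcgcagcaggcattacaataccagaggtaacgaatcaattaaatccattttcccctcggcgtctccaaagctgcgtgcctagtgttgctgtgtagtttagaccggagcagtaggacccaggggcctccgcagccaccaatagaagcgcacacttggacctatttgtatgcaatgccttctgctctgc
ROBO1 proximal start: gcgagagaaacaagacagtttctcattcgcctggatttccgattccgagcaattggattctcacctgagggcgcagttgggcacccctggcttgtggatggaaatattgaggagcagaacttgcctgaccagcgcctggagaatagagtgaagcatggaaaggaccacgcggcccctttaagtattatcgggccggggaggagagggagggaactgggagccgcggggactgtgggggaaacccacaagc
RAB31: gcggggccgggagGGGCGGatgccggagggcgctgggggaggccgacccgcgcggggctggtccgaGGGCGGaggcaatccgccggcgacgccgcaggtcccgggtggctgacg
The TATA box TATAAA, the GC box core GGGCGG and the E-box CACGTG were searched on both strands in the 250 bases before each start. Over 35116 such windows of all genes, TATAAA was in 10.7%, GGGCGG in 42.6% and CACGTG in 6.34%. Neither ROBO1 window held any of the 3, and their GC content was 48% and 56.8%, against a median of 58% over all windows. The RAB31 window held 3 GGGCGG matches, of which 2 fall in the printed stretch, and 1 CACGTG match, and its GC content of 82% was the highest of the members. Of 14 member starts in 9 genes, 9 held GGGCGG, 2 held CACGTG (EIF1B and RAB31) and 1 held TATAAA (ECM1). These starts are not independent: the FXR1 windows begin at chr3:180912420 and chr3:180912421 and are almost the same sequence, and SATB1 has several starts. MTUS1 had no entry in the table. A match describes the letters only.

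Levels of the class genes per length were spread over much of the range of tested genes. FPKM scales a gene's fragments by its length and the library's depth, which allows comparison between genes. The length here is all annotated exon bases, not a single transcript, so the order depends on the annotation. For EIF1B it was 1912 bases, against 1010 in its longest transcript, and for FXR1 12054 against 8711. FXR1 averaged 30.1 FPKM over the 6 libraries, above 90.3% of tested genes, and EIF1B averaged 23.6 FPKM. LTA4H followed at 8.27 FPKM, RAB31 at 5.30 FPKM and ROBO1 at 4.01 FPKM. The other 5 were near or under 1 FPKM: SATB1 averaged 0.999, ID2 0.764, ECM1 0.758, MTUS1 0.412 and LMCD1 0.261 FPKM, the last above 4.78% of tested genes. In this order the library ranges of neighbours overlapped except between EIF1B and LTA4H and between ROBO1 and SATB1. Within single libraries, LTA4H was above RAB31 and ECM1 above MTUS1 in 6 of 6, so those overlaps come from the spread between libraries. The other 5 overlapping pairs of neighbours kept this order in 3 to 5 of 6 libraries. The order of means also differed by group. ROBO1 averaged 3.30 FPKM in control libraries, under RAB31 at 6.33, and 4.72 FPKM in knockdown libraries, above RAB31 at 4.26. In knockdown library 1, however, RAB31 (5.97 FPKM) was above ROBO1 (4.82 FPKM). ID2 averaged 0.424 FPKM in control libraries, under ECM1 (0.876) and MTUS1 (0.473), and 1.10 FPKM in knockdown libraries, above SATB1 (1.02). Single libraries did not all keep this: SATB1 (1.67) was above ID2 (1.27) in knockdown library 1. In control library 3 ID2 (0.512) was above MTUS1 (0.465).

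**Figure D1:**
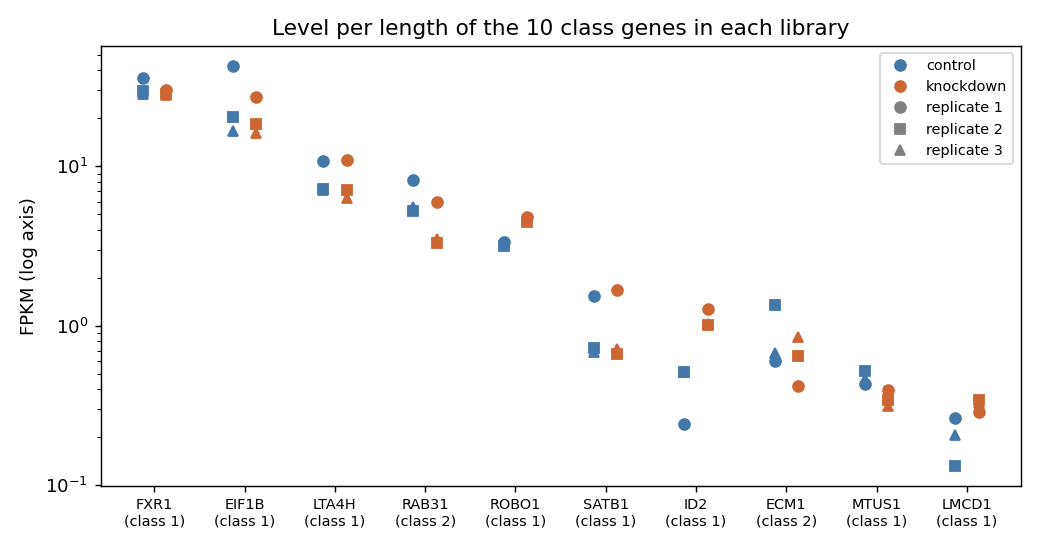
Level per length (FPKM, log axis) of the 10 class genes in each of the 6 libraries, ordered by mean, with colour for the group and marker shape for the replicate number. FXR1 and EIF1B are highest (means 30.1 and 23.6 FPKM) and LMCD1 is lowest (0.261 FPKM).

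Knockdown was compared with control to ask whether either set of class genes moves when NELFCD is depleted. In the blocked fit the class 1 genes ROBO1 and ID2 rose and the class 2 gene RAB31 fell, and the other 7 members did not pass. That is 2 of 10 members higher, where 5.48% of all tested genes rose, and 1 of 10 lower, where 8.01% fell (13.5% in either direction). Without the replicate number, edgeR called 0 of the 10 and 0% of all tested genes, and 2 members (ID2 and ROBO1) had an unadjusted p under 0.05, as did 6.43% of all tested genes. DESeq2 without the replicate number called ROBO1, with 1.02% of all tested genes, and limma-voom called none. In replicates 2 and 3 alone edgeR called 5 members: ID2, LMCD1 and ROBO1 rose, among 11.7% of tested genes, and MTUS1 and RAB31 fell, among 13.7% (25.3% in either direction). Other fits that handle the replicate number called 2 to 5 members. Blocked limma-voom, RLE scaling and upper-quartile scaling called 3 each, among 14.3%, 13.7% and 14.7% of tested genes, and a batch term for replicate 1 called 3, among 21%. Blocked DESeq2 called 2, among 9.07%. The blocked edgeR fits without pairs 1, 2 and 3 called 5, 2 and 4 members, among 27.6%, 6.09% and 11.6%. Groups did not overlap for 4 of 10 members, 3 higher (ID2, LMCD1 and ROBO1, against 7.52% of tested genes) and 1 lower (MTUS1, against 7.38%). ID2 is in these tallies although its control library 1 was under the filter on low counts. The members were chosen with earlier results of these data known, so the tallies only describe them. The class 1 genes did not share a direction: their 8 blocked log2 fold changes had a median of 0.0034 with 4 above 0. Those of the 2 class 2 genes had a median of -0.49, both under 0. The median over all tested genes was 0.0001.

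**Figure D2:**
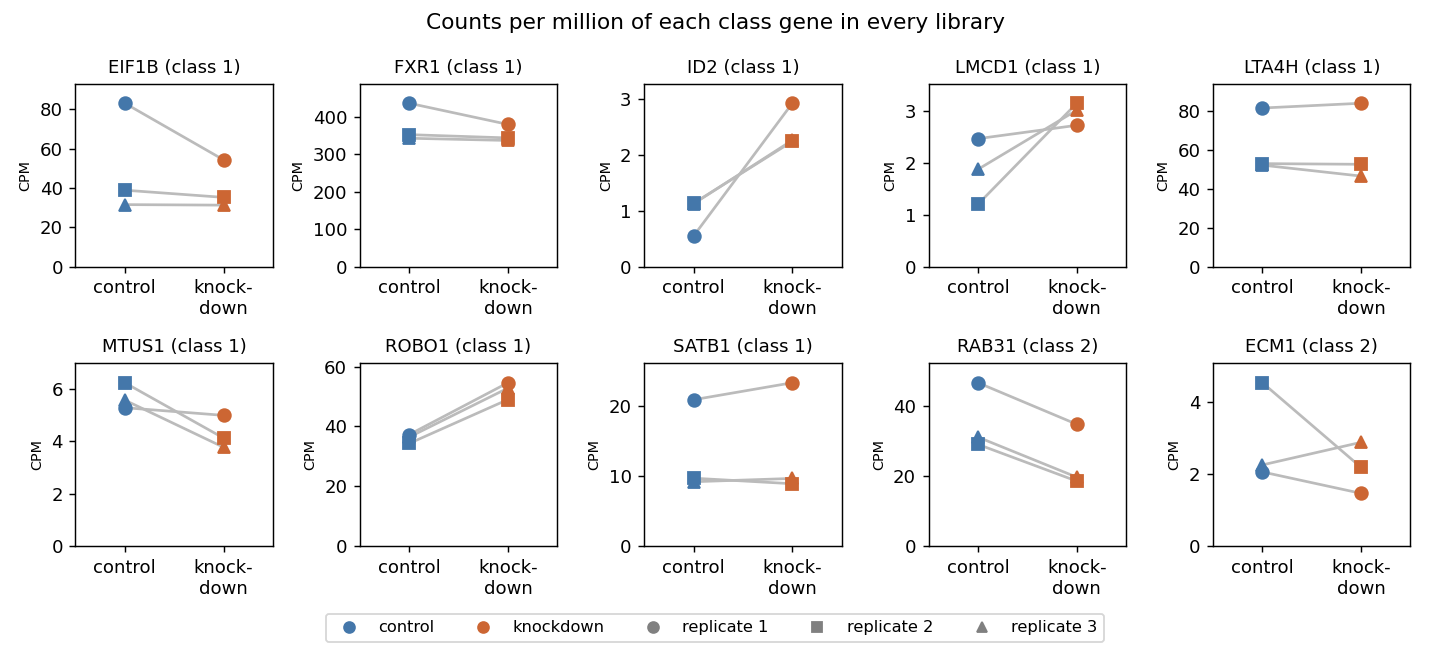
CPM (y axis from 0) of each class gene in control and knockdown libraries, with grey lines joining libraries of the same replicate number. ROBO1 and ID2 are higher in every knockdown library than in any control, and RAB31 is lower in each same-numbered pair although its groups overlap.

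ROBO1 encodes a receptor for SLIT proteins that steers axons and migrating cells, and it lies on chromosome 3 (hg38, chr3:78597240-79767815, minus strand). Its level was 37.3, 34.3 and 36.5 CPM in control libraries 1 to 3 and 54.6, 49.0 and 52.8 CPM in knockdown libraries 1 to 3. All 3 knockdown libraries lay above all 3 controls, with means of 36.0 ± 1.53 and 52.2 ± 2.87 CPM (SD, n = 3 each). The 95% Poisson interval of the highest control, 33.8 to 40.0 CPM, ended below that of the lowest knockdown library, 45.3 to 52.0 CPM. These intervals are scaled to the raw library total, unlike the CPM values, and cover counting error only. The log2 ratios of same-numbered libraries were 0.55, 0.51 and 0.54, so the difference was nearly the same size in every pair. The blocked edgeR fold was 1.45 (log2 0.53 ± 0.0715 SE, adjusted p = 0.00331). The unblocked log2 fold change was 0.53 ± 0.117 with an edgeR adjusted p of 0.529, while DESeq2 gave an adjusted p of 0.0075. An exact two-sided permutation test of the 3 against 3 CPM values gave p = 0.1, the smallest that this design allows.

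ID2 encodes a dominant negative partner of basic helix-loop-helix factors, since it binds E proteins but not DNA (chr2:8678845-8684453, plus strand). Its reads were few: 8, 16 and 18 counts in control libraries 1 to 3 and 44, 37 and 33 counts in knockdown libraries 1 to 3. In CPM these were 0.548, 1.13 and 1.13 against 2.92, 2.24 and 2.26, and the groups did not overlap. The filter cutoff was 0.680 CPM, which 5 of 6 libraries reached. Control library 1 was under it, so ID2 entered the test with the help of the knockdown libraries, where it was high. Replicate 1 held both the lowest control and the highest knockdown value, so pair 1 had a log2 ratio of 2.42, against 0.99 and 1.01 for the other pairs. The blocked edgeR fold was 2.64 (log2 1.399 ± 0.360 SE, adjusted p = 0.0357). At this depth the counting intervals of single libraries still touched: control library 2 spanned 0.639 to 1.82 CPM and knockdown library 3 spanned 1.55 to 3.17 CPM. The call was lost with DESeq2 in the blocked model (adjusted p = 0.062) and in the blocked edgeR fit without pair 2 (adjusted p = 0.0559). The exact permutation p was 0.1.

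RAB31 encodes a small GTPase of the RAB5 subfamily that acts in traffic between the trans-Golgi network and endosomes (chr18:9708165-9862551, plus strand). It stood at 46.6, 29.02 and 31.1 CPM in control libraries 1 to 3 and at 34.8, 18.5 and 19.7 CPM in knockdown libraries 1 to 3. Knockdown library 1 lay above control libraries 2 and 3, so the groups overlapped, but each knockdown library was below its same-numbered control. The level left in the knockdown was 74.6%, 63.9% and 63.3% of the control in pairs 1, 2 and 3. The blocked log2 fold change was -0.57 ± 0.0903 (SE, edgeR adjusted p = 0.00651). In replicates 2 and 3 alone it was -0.66 (edgeR adjusted p = 1.78e-07). That p-value rests on 2 residual degrees of freedom and on the small spread between those libraries. Without the replicate number the value was -0.55 ± 0.317 with an edgeR adjusted p of 0.939, and the exact permutation p was 0.3.

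**Figure D3:**
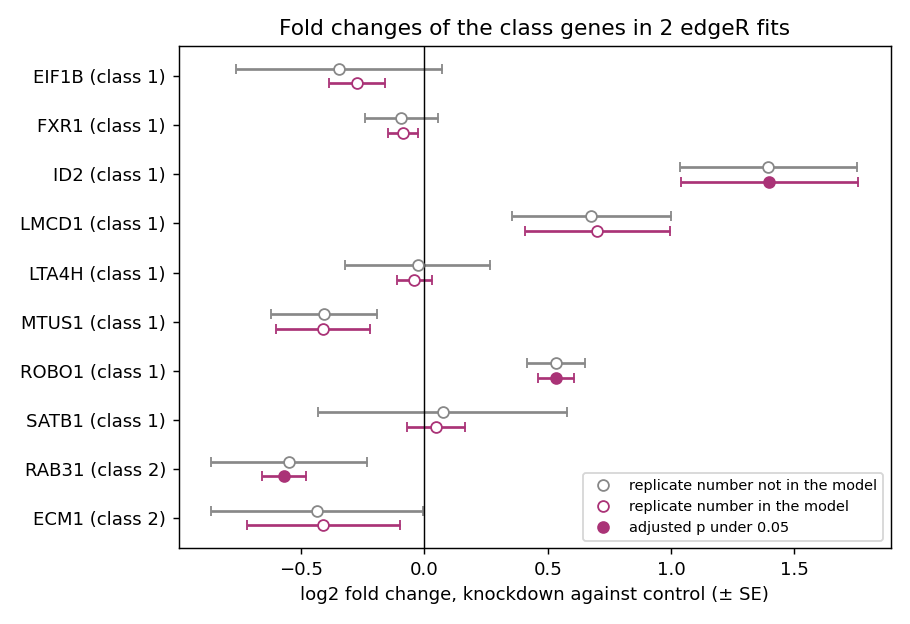
Log2 fold changes of the class genes with SE bars from edgeR with (purple) and without (grey) the replicate number, filled where the adjusted p is under 0.05. ROBO1, ID2 and RAB31 pass only with the replicate number, where the bars of RAB31, SATB1, LTA4H and EIF1B are much shorter.

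LMCD1 and MTUS1 differed between groups that did not overlap, without passing the blocked test. LMCD1, whose product carries LIM and cysteine-rich domains and represses GATA6, is at chr3:8501707-8574673 (plus strand). It stood at 2.47, 1.20 and 1.88 CPM in control libraries 1 to 3 and at 2.72, 3.15 and 3.02 CPM in knockdown libraries 1 to 3, from 17 to 52 counts a library. Its blocked log2 fold change was 0.70 ± 0.294 (SE, edgeR adjusted p = 0.146), with pair values of 0.14, 1.39 and 0.68. In replicates 2 and 3 alone it was 0.98 (edgeR adjusted p = 0.0171). MTUS1, which encodes a microtubule-associated candidate tumour suppressor, is at chr8:17643795-17800917 (minus strand). It stood at 5.28, 6.23 and 5.57 CPM in control libraries 1 to 3 and at 4.99, 4.12 and 3.77 CPM in knockdown libraries 1 to 3. Its blocked log2 fold change was -0.41 ± 0.190 (SE, edgeR adjusted p = 0.182), and in replicates 2 and 3 alone it was -0.58 (edgeR adjusted p = 0.0421). Among the fits run, both were called only with pair 1 left out, and the exact permutation p was 0.1 for each gene. Of the exon bases of MTUS1, 2.31% are shared with PDGFRL on the opposite strand, and whether counting used strand is not given.

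The other 4 class 1 genes did not pass the blocked test. EIF1B encodes a close relative of the start codon scanning factor EIF1 (chr3:40309684-40312424, plus strand). It stood at 83.1, 38.9 and 31.5 CPM in control libraries 1 to 3 and at 54.3, 35.2 and 31.3 CPM in knockdown libraries 1 to 3. Its log2 ratio was -0.61 in pair 1, against -0.14 and -0.01 in the others, and the blocked log2 fold change was -0.27 ± 0.114 (SE, edgeR adjusted p = 0.144). Without control library 1 the unblocked value turned to 0.19, and without pair 3 the blocked edgeR adjusted p was 0.0202. FXR1, an RNA-binding relative of the fragile X protein, is at chr3:180868141-180982753 (plus strand). It stood at 437, 353 and 343 CPM in control libraries 1 to 3 and at 380.4, 344 and 337 CPM in knockdown libraries 1 to 3. Its blocked log2 fold change was -0.09 ± 0.0605 (SE, edgeR adjusted p = 0.37), and without control library 1 the unblocked value was 0.02.

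LTA4H encodes the hydrolase that makes leukotriene B4 (chr12:96000828-96043520, minus strand). Its level was 81.4, 52.9 and 52.1 CPM in control libraries 1 to 3 and 83.9, 52.5 and 46.5 CPM in knockdown libraries 1 to 3. The blocked log2 fold change was -0.04 ± 0.0714 (SE, edgeR adjusted p = 0.744), and with upper-quartile scaling it was 0.007. Unblocked, its sign turned without control library 1 (0.21) or knockdown library 2 (0.06) or 3 (0.12). Of its exon bases, 9.56% are shared with non-coding genes on the opposite strand. SATB1 encodes a chromatin organizer that binds matrix attachment regions (chr3:18345387-18445588, minus strand). It stood at 20.9, 9.70 and 9.19 CPM in control libraries 1 to 3 and at 23.3, 8.91 and 9.66 CPM in knockdown libraries 1 to 3, and replicate 1 was the high library in both groups. The blocked log2 fold change was 0.05 ± 0.116 (SE, edgeR adjusted p = 0.818), and in replicates 2 and 3 alone it was -0.03. Unblocked, it was 0.07, and its sign turned without control library 2 (-0.11) or 3 (-0.13) or knockdown library 1 (-0.52).

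ECM1, the other class 2 gene, encodes a secreted glycoprotein of the extracellular matrix (chr1:150508062-150513789, plus strand). It stood at 2.06, 4.53 and 2.25 CPM in control libraries 1 to 3 and at 1.46, 2.18 and 2.88 CPM in knockdown libraries 1 to 3. Control library 2 was the high one, and the pairs went in both directions, with log2 ratios of -0.49, -1.05 and 0.35. The blocked log2 fold change was -0.41 ± 0.311 (SE, edgeR adjusted p = 0.417), and without control library 2 the unblocked value was 0.01. The 2 class 2 genes therefore shared a negative value in this fit, but RAB31 alone passed.

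Several class genes differed more between replicates than between groups. In an edgeR fit with group and replicate 1 as terms, 5 of 10 members were higher in replicate 1 than in replicates 2 and 3 and 0 were lower, where 31.6% of tested genes were higher and 30.2% lower. SATB1 was higher by 1.24 on the log2 scale, EIF1B by 0.99, RAB31 by 0.74, LTA4H by 0.70 and FXR1 by 0.24. ROBO1 differed by 0.09 (edgeR adjusted p = 0.318), ID2 by -0.07, MTUS1 by 0.08 and LMCD1 by 0.21, none of which passed. ECM1 had a log2 difference of -0.74 that missed the threshold (edgeR adjusted p = 0.0679). The common biological coefficient of variation fell from 32.6% without the replicate number to 8.17% with it. It was 3.14% in replicates 2 and 3 alone, with 2 residual degrees of freedom, so p-values there reflect a very narrow spread.

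**Figure D4:**
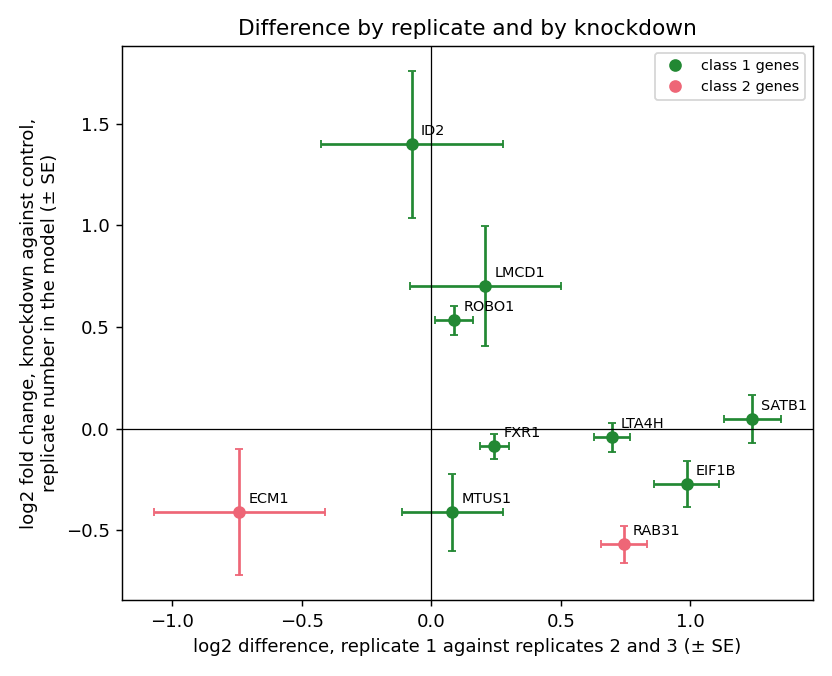
Log2 difference of replicate 1 against replicates 2 and 3 (x axis) and blocked log2 fold change of the knockdown (y axis) for each class gene, with SE bars. SATB1 and EIF1B lie far to the right, while ROBO1, ID2 and LMCD1 lie near 0 on the x axis and above 0 on the y axis.

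Of the 10 members, 5 lie on chromosome 3, and all 5 are class 1 genes: EIF1B, FXR1, LMCD1, ROBO1 and SATB1. ROBO1 was the member of these 5 that passed the blocked test. Across the 875 tested genes of chromosome 3, 80 rose (9.14%) and 66 fell (7.54%) in that fit, against 5.48% and 8.01% of all tested genes. Their median log2 fold change was 0.03, against 0.0001 over all tested genes. The assay's other class 2 genes, the epithelial cadherin CDH1 and the serotonin receptor HTR2B, were at the edge of detection. CDH1 had 0 counts in 5 libraries and 1 in knockdown library 3, and HTR2B had 2 to 8 counts a library. PRAME, a cancer-testis antigen used as a separate marker of metastatic risk, had 0 counts in all 6 libraries, which allows up to 0.180 to 0.2097 CPM. None of these 3 was tested.

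The assay's 3 reference genes MRPS21, RBM23 and SAP130 were not called in the blocked fit. The mitochondrial ribosomal protein gene MRPS21 stood at 23.8, 22.4 and 23.1 CPM in control libraries 1 to 3 and at 29.97, 25.6 and 27.6 CPM in knockdown libraries 1 to 3, so its groups did not overlap. Its blocked log2 fold change was 0.26 ± 0.0881 (SE, edgeR adjusted p = 0.0839), and it passed with replicate 1 as a batch term (edgeR adjusted p = 0.0458). The splicing factor gene RBM23 and the SIN3 complex gene SAP130 had blocked values of -0.12 and -0.22. Both were lower in replicate 1, with log2 differences of -0.70 and -0.52. Of 7 uveal melanoma driver genes, 6 were tested and 0 were called in the blocked edgeR fit, 1 with an unadjusted p under 0.05, and blocked limma-voom called 1. The splicing factor SF3B1 had a blocked value of -0.13 and the phospholipase PLCB4 one of 0.74 (edgeR adjusted p = 0.183), with replicate 1 higher by 2.12. In replicates 2 and 3 alone, where the spread between libraries was small, PLCB4 rose by a smaller 0.33 (edgeR adjusted p = 7.29e-09).

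Relatives and partners of the class genes were followed in lists of known members of each pathway. Their counts are from the blocked fit, since edgeR without the replicate number called 0 genes in each list, and stand against 5.48% of all tested genes that rose and 8.01% that fell. Median blocked log2 fold changes were -1.12 for the 5 tested ECM1 partners and between -0.17 and 0.11 for the other 9 lists, against 0.0001 for all tested genes. The lists were chosen with earlier results of these data known, so these medians only describe the lists. Among the ID proteins and their E protein partners, 5 of 6 were tested, 2 rose and 1 fell. ID1 averaged 45.3 ± 17.1 CPM in control and 71.0 ± 30.5 CPM in knockdown libraries (SD, n = 3), with a blocked log2 fold change of 0.63 (edgeR adjusted p = 0.00176). ID3 averaged 27.1 ± 15.9 and 47.1 ± 26.6 CPM, with 0.82 (edgeR adjusted p = 0.000981). Together with ID2, all 3 tested ID genes rose in this fit, and ID4 was not tested. ID2 entered the test with the help of its knockdown libraries, and blocked DESeq2 did not call it. Replicate 1 was low for ID1 and ID3 in both groups (log2 differences of -1.20 and -1.98), while for ID2 the difference was -0.07. The E protein gene TCF4 fell from 18.4 to 9.93 CPM (-0.92, edgeR adjusted p = 0.0306), while TCF3 and TCF12 had values of 0.02 and -0.12 and did not pass.

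In the SLIT-ROBO list, 12 of 15 genes were tested, 1 rose and 0 fell. The riser was ROBO4, an endothelial member of the receptor family, at 127 ± 8.94 and 153.5 ± 13.4 CPM (SD, n = 3) with a blocked log2 fold change of 0.27 (edgeR adjusted p = 0.0201). Blocked DESeq2 called 0 genes of this list. The GTPase-activating partners SRGAP1 and SRGAP2 had values of -0.13 and -0.14 and did not pass. Of 6 endothelial markers 4 were tested and 1 was called: the vascular cadherin CDH5 fell from 140 to 53.7 CPM (-1.38), while TIE1 (-0.18), KDR (-0.77) and PECAM1 (-0.90) did not pass. The summed level of the 6 endothelial markers was 375 to 491 CPM in control and 278 to 358 CPM in knockdown libraries. Of 6 epithelial markers 2 were tested and 1 was called: KRT18 rose (0.49) and KRT8 (0.21) did not pass. The untested KRT19, ESRP1 and EPCAM averaged 0.649, 0.554 and 0.298 CPM in control and 0.0873, 0.176 and 0.106 CPM in knockdown libraries. These levels rest on 33, 33 and 18 counts over all 6 libraries. Of 3 retinal pigment epithelium markers, RPE65 stood at 0.0685, 0.0708 and 0.188 CPM in control libraries 1 to 3, under the filter, and at 1.33, 1.45 and 1.85 CPM in knockdown libraries 1 to 3. It entered the test through the knockdown libraries alone, and the untested BEST1 averaged 0.836 CPM in control and 0.486 CPM in knockdown libraries. The summed level of the epithelial markers was 687 to 1302 CPM in control and 1058 to 1462 CPM in knockdown libraries. The part of these markers in the ROBO values was not tested.

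Among LIM domain relatives of LMCD1 and its partner GATA6, 8 of 9 were tested, with 1 riser and 1 faller. The focal adhesion gene TES rose (0.31) and the muscle-type LIM gene FHL1 fell (-0.63), while FHL2 and CRIP2 did not pass. Of 10 fragile X relatives and stress granule partners of FXR1, 2 fell: CYFIP2 (-0.47) and CYFIP1 (-0.29, edgeR adjusted p = 0.0498), both of the complex that controls actin branching. Blocked DESeq2 called 1 of them, and CAPRIN1 and G3BP1 did not pass. Of 15 start codon scanning factors, EIF2S1, a subunit of the initiator tRNA carrier, rose (0.24, edgeR adjusted p = 0.0463), and blocked DESeq2 called 0 genes of this list. EIF1, the close relative of EIF1B, had a value of -0.10 and was higher in replicate 1 by 1.15, much as EIF1B was.

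In 3 lists the blocked edgeR fit called 0 genes. These were the leukotriene pathway (4 of 10 tested, 1 with an unadjusted p under 0.05), MTUS1 relatives and partners (5 of 7 tested, 1 such gene) and the SATB family with its partners (6 of 6 tested, 0 such genes). DESeq2 and limma-voom with the block also called 0 in each. In replicates 2 and 3 alone, the aminopeptidase RNPEP fell (-0.21, edgeR adjusted p = 0.00427) and the microtubule end-binding gene MAPRE1 rose (0.11, edgeR adjusted p = 0.023). CTNNB1 and HDAC1, partners of SATB1, had blocked values of -0.03 and -0.09.

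Around the class 2 genes, 17 of 17 genes of the RAB5 subfamily and of endosome traffic were tested, with 1 riser and 1 faller. RIN1, an exchange factor for RAB5 proteins, averaged 15.9 and 25.8 CPM (0.70, edgeR adjusted p = 0.00769). The sorting receptor SORT1 stood at 44.6, 44.9 and 47.0 CPM in control libraries and at 30.3, 32.2 and 32.8 CPM in knockdown libraries (-0.52, edgeR adjusted p = 0.00456). The mannose 6-phosphate receptors M6PR and IGF2R had values of 0.16 and -0.03 and did not pass. Of 6 reported binding partners of ECM1, 5 were tested and 3 fell, all of them matrix proteins. The fibulin genes EFEMP1 and FBLN1 had blocked log2 fold changes of -1.53 and -1.12, and the perlecan gene HSPG2 one of -1.47. EFEMP1 had few reads, with means of 3.48 CPM in control and 1.19 CPM in knockdown libraries. HSPG2 was mostly a replicate 1 transcript, with 26.7, 3.61 and 3.81 CPM in control and 10.5, 1.09 and 1.30 CPM in knockdown libraries. The growth factor precursor GRN and the scramblase PLSCR1 did not pass, with values of 0.21 and -0.11.

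**Figure D5:**
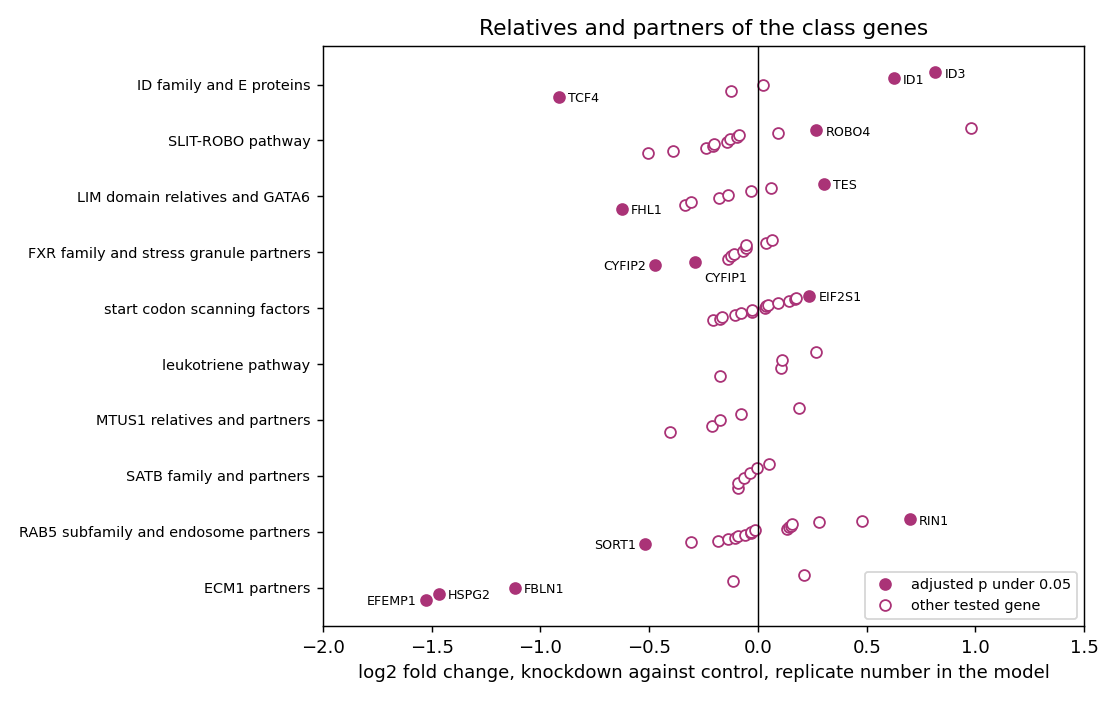
Blocked log2 fold change of each tested gene in 10 lists of relatives and partners of the class genes, with filled points where the edgeR adjusted p is under 0.05. The 3 fallers among ECM1 partners and the risers ID1 and ID3 lie farthest from 0 among the filled points, together with TCF4, RIN1 and FHL1.

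The genes whose log2 CPM ran most closely with each member over the 6 libraries were sought among 9094 other protein-coding genes with a mean of at least 10 CPM. ROBO1 ran closest with PPIE and NDUFAF2 (Pearson r = 0.991 and 0.99), and 131 genes had r over 0.9 with it. ID2 ran closest with PEA15 and TM4SF1 (both r = 0.998), with 177 such genes. RAB31 ran closest with ZNF778 and BTN2A2 (both r = 0.998), with 599 such genes. SATB1, LTA4H, EIF1B and FXR1, which were high in replicate 1, had 1628, 1540, 1269 and 1176 such genes. LMCD1, MTUS1 and ECM1, with few reads, had 32, 31 and 18. The points share their libraries and depth, so these correlations describe the pattern over the 6 libraries and nothing more.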

How the data were processed

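Gene counts were deposited per library by the authors for 58735 gene rows, and FPKM values were deposited in a second table, per the file headers. The submitters' processing notes name build hg38. Aligner, counting program and strand use are not given in the sources used here. Each FPKM equalled count over gene length and 1 constant per library, which was 0.982 to 1.07 times the total. Gene coordinates matched GENCODE 29.

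Counts were tested with edgeR 4.0.16 (R 4.3.3, limma 3.58.1, DESeq2 1.42.0): filterByExpr on the groups at a minimum count of 10, TMM scaling, quasi-likelihood F-tests, Benjamini-Hochberg adjustment over the 14844 genes tested, and a threshold of 0.05. CPM uses TMM-scaled library sizes, and ± is the SD over 3 libraries or the SE of a fold change, as named. Libraries held 14306733 to 16656630 counts. The 95% Poisson intervals treat reads as independent, which they are not without molecular identifiers, and so cover counting error only. They are scaled to the raw library total, without TMM. The scripts were tested on simulated data.

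The comparison was 3 knockdown against 3 control libraries, grouped by title and genotype label. The design without the replicate number is the reference, and the number as a block is an alternative. Deviations from the group mean correlated between libraries of equal number (r = 0.838, 0.629 and 0.616 across genes), so the numbers were taken to pair the samples. No label states this pairing, and replicate 1 carried it: the difference between replicates 2 and 3 was not shared between groups (r = -0.00464).

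The members and the gene lists were chosen with earlier results of these data known. There are 22 lists with 159 different genes, all of them matched by symbol. Named genes were all members, the other assay genes, NELFCD and genes picked from each list by rule. The rule took up to 3 called members of at least 1 CPM with the largest blocked fold change. It also took up to 2 not called with the highest CPM, and not every gene it picked is printed. TYR, MLANA, PECAM1, VWF, TEK, KRT19, ESRP1, EPCAM, RPE65 and BEST1 were named after their values were seen. Likeness used log2 of CPM with an offset of 0.5. Promoters came from RefSeq (GRCh38.p14) and were trimmed to bases outside GENCODE 29 exons. Alternatives were other tools, scalings, filters, a batch term, left-out libraries or pairs, and log2 FPKM with pseudocounts of 1 and 0.1.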

Additional observations from a re-analysis of the deposited data

How the results depend on the processing

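Without the replicate number, edgeR called 0 class genes, also under other scalings and filters, with limma-voom, with log2 FPKM and without each library in turn (0 to 0); DESeq2 called 1. With the replicate block the number was 3, as with block and RLE scaling, upper-quartile scaling or limma-voom and with replicate 1 as a batch term. It was 2 with block and DESeq2, and 5 in replicates 2 and 3 alone. Leaving out a pair under the block gave 5, 2 and 4 calls without pairs 1, 2 and 3. Calls over all genes went from 0 without the block to 151 (DESeq2), 2002 (block), 3117 (batch term) and 3758 (replicates 2 and 3 alone), and to 932 without pair 2.

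NELFCD passed with DESeq2 (-1.28) and, with the replicate block, at -1.30 (edgeR), -1.32 (DESeq2), -1.29 (limma-voom), -1.31 (RLE) and -1.26 (upper quartile). It also passed with the batch term (-1.30), in replicates 2 and 3 alone (-1.15) and under the block without pairs 1, 2 and 3 (-1.15, -1.34 and -1.45). Over the 10 fits that handle the replicate number, ROBO1 and RAB31 were called in 10, ID2 in 8, LMCD1 and MTUS1 in 2 each and EIF1B in 1. These fits reuse the same 6 libraries or part of them, so their calls are not independent. The cause of the differences was not tested.

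Signs turned for LTA4H with upper-quartile scaling (0.027), under the block with it (0.0070) and without pair 3 (0.012), and for SATB1 in replicates 2 and 3 alone (-0.027) and under the block without pair 1 (-0.026). Without single libraries the unblocked values spanned -0.63 to 0.19 for EIF1B, -0.16 to 0.022 for FXR1, -0.33 to 0.21 for LTA4H, -0.52 to 0.56 for SATB1 and -0.70 to 0.014 for ECM1. With a filter of a mean of at least 5 CPM, ID2, LMCD1, MTUS1 and ECM1 were not tested. Counts of 8 to 52 per library limit ID2 and LMCD1.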
